A study of Mus musculus and Rattus norvegicus with 35 samples.

Results

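Single-exon circular RNAs (circRNAs) are circles made from 1 exon whose downstream end is joined to its own upstream end, and 1157 of them were described here across mouse tissues, hippocampal development and neuronal compartments. They were chosen by their annotated structure alone, as the entries of the deposited list of mouse circRNAs with mapped exons that hold exactly 1 separate exon block once touching blocks are merged and that have a named host gene. The 1157 circles came from 1009 host genes. They made up 4.93% of the 23461 circRNAs of that list and 4.06% of the 28482 mouse circRNAs of the abundance table, and they held 34857 of its 403379 reads (8.64%). Of the members, 730 were 1 block as deposited and 427 became 1 exon only after touching pieces were joined, at most 14 pieces.

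The study profiled RNA of C57BL/6 mice and Sprague Dawley rats by sequencing, to ask how circRNAs vary with tissue, neuronal compartment, development and activity. Brain, heart, liver, lung and testis each had 3 libraries of rRNA-depleted RNA, 2 from 20-week and 1 from 14-week mice, and a poly(A)-selected library was made from 14-week brain. Hippocampus had 2 libraries each at embryonic day 18 (E18) and postnatal days 1, 10 and 30 (P1, P10 and P30). Hippocampal synaptosomes, which are pinched-off nerve endings, their homogenate, CA1 neuropil (the layer of dendrites and axons) and CA1 somata had 1 mouse library each at 4 weeks. Rat libraries are used here only for the circles they listed, with their reads summed. They were 1 library each of CA1 neuropil and CA1 somata at 4 weeks, 2 of control neuronal cultures and 2 of cultures treated with the drug bicuculline. The labels name neither an allele nor a treatment for these mouse groups, and whether replicates come from different animals is not stated, so p-values measure the spread between libraries, which may be technical.

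CircRNAs arise by back-splicing, in which the spliceosome joins a splice donor to an acceptor that lies upstream of it. The circle has no free ends and resists exonucleases, and circRNAs are known to be plentiful in brain. A single-exon circle needs no splicing inside it, and exons that form one are known to be longer than most internal exons. Circles that carry the start codon of their gene can hold an open reading frame that runs through the back-splice junction.

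The sequence at the junction is what identifies a circle, so it is shown for 8 abundant members whose values follow. Each line gives the last 15 bases of the exon in lower case and then its first 15 bases in capitals, so the change of case marks the back-splice junction. The sequences are GENCODE M21 exons (GRCm38), matched by gene, chromosome, strand and exact length; the coordinates below are those of the files, on mm9.
Nfix: ttgtccacactccggGATGAGTTCCACCCG
Hipk3: atctcgctactacagGTATGGCCTCACAAG
Cdyl: ctgttaatggaaaagGTGGAAAGTATCGTT
Myst4: catgagaaagaccagGTCTTGGTTTCCTAA
Zfp609: gtcaagtctgaaaagCAATGATGTTGTCCA
Pcmtd1: tgggcttaattttagGTTTAATTTATTTTT
Tcf20: atcgccagagagatgGAGGGCTGCTGGCCT
Kcnj6: tggtggaagccacagCTAACGTCTTGGAAG

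A whole circle is shown for Med13l, a subunit of the Mediator kinase module. Its exon is the second of 31, is all coding and is 238 bases long. The first and the last 15 bases, which meet at the junction, are in capitals.
Med13l: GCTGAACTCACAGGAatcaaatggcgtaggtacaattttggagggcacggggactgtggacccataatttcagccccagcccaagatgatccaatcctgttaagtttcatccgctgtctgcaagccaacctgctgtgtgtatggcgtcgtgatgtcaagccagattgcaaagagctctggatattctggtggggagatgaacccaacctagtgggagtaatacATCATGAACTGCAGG

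The start codon lies inside several of these exons, and its surroundings are shown for 3 of them with the ATG in capitals.
Zfp609: gactctaagATGtccttgagc
Myst4: ttgtcaaccATGgtaaaactt
Tcf20: ctgaacagtATGcagtcgttt
Read from that ATG around the circle, the frame of Zfp609 reached a stop after the junction and spanned 250 codons, and that of Myst4 did so over 212 codons. The frame of Tcf20 met no stop, so its circle can be read round without end.

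Most reads of the class came from few circles. The 12 members with the highest mean abundance over the rRNA-depleted mouse libraries were led by Tulp4, a member of the tubby-like protein family, at 140.3 RPM, the deposited unit of back-splice junction reads scaled to depth. Its circle at chr17:6137211-6139156 on the plus strand is 1946 bases long, was merged from 4 touching pieces and had 4619 reads. It took 92.7% of the reads of its gene's listed circRNAs, those of the list with mapped exons. Other circRNAs of the abundance table are left out of such shares. Med13l followed at chr5:119043342-119043579 with 43.8 RPM and 95.8% of its gene's listed circRNA reads. Nfix, which encodes a nuclear factor I transcription factor, gave a 532-base circle at chr8:87295683-87296214 with 41.1 RPM and 98.2% of its gene's listed circRNA reads.

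Further down the order, Hipk3, a homeodomain-interacting protein kinase, averaged 34.9 RPM for its 1099-base circle at chr2:104310906-104312004. Cdyl, a chromodomain corepressor, averaged 29.9 RPM for 667 bases at chr13:35907778-35908444. Myst4, a histone acetyltransferase also called Kat6b, averaged 28.7 RPM, and the zinc finger gene Zfp609 25.5 RPM for 874 bases at chr9:65642429-65643302. The long noncoding RNA Pvt1 averaged 20.0 RPM, the methyltransferase-like Pcmtd1 19.9 RPM, Arhgap5 18.4 RPM, the SET-binding Setbp1 18.0 RPM and the transcriptional coregulator Tcf20 17.6 RPM. RPM counts reads over the 1 back-splice junction of each circle, so it is not divided by length.

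The rest of the class was sparse. Of the 1157 members, 322 had 2 reads over all libraries and 599 had at most 4, while 227 (19.6%) had 20 or more and held 86.6% of the member reads. The 10 highest held 38.3% and Tulp4 alone 13.3%. Only 6 members had a read in all 27 rRNA-depleted mouse libraries, and 90 were seen in 1 library. Among the other classes, 14.6% of 3914 2-exon circRNAs, 14.1% of 15510 with 3 to 9 exons and 7.43% of 2880 with 10 or more exons had 20 or more reads.

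The single exons were long. Their median length was 376 bases (interquartile range 198 to 806), against a median of 148.5 bases per exon in 2-exon circRNAs, 139.3 in those of 3 to 9 exons and 151.6 in those of 10 or more. The longest were Tcf20 with 5772 bases, Rai1, a retinoic acid-induced nuclear gene, with 5527 and the histone methyltransferase Ash1l with 4558. The shortest were the vesicle calcium sensor Syt1 and a minor Rims2 circle with 101 bases each. Among internal exons of the matched transcripts 24.8% were under 101 bases, and no member was, so the deposited list holds no single-exon circle of those lengths.

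Short single exons were rarely abundant. The share of members with 20 or more reads was 6.08% of 296 up to 200 bases, 17.2% of 308 from there to 400, 28.7% of 261 from there to 800, 29.0% of 186 from there to 1600 and 25.5% of 106 above 1600 bases. The 3 bins above 400 bases thus had similar shares, and both shorter bins lay below them. These are descriptions of the members, with no test.

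Second exons made up a large part of the members. Of the 1157 members, 1015 (87.7%) matched exactly 1 GENCODE exon of the same gene and length, 56 matched several and 86 none, among them the circles of Tulp4 and Arhgap5. The matched exon was the second of its transcript for 407 members (40.1%), whereas second exons were 913 of the 14435 exons of those transcripts (6.32%). It was a later internal exon for 603, the last for 3 and the first for 2. The first exon has no splice acceptor and the last no donor, so neither can be back-spliced by itself through annotated sites.

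Start codons were frequent as well. The exon held the annotated start codon in 253 matched members (24.9%), and in 449 of 12607 internal exons of the same transcripts (3.56%). Of the matched circles with 2 exons 22.3% began at the second exon and 8.01% had the start codon in their 5′ exon. The values were 21.3% and 6.76% with 3 to 9 exons, and 25.6% and 9.96% with 10 or more. In the plot of first exons by class the single-exon bars are the highest of each kind. The classes differ in how many circles could be matched. These were 87.7% of single-exon, 89.9% of 2-exon, 65.6% of 3 to 9 exon circles and 39.1% of those with 10 or more. The values of the larger circles thus cover only a part of their class.

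**Figure D1:**
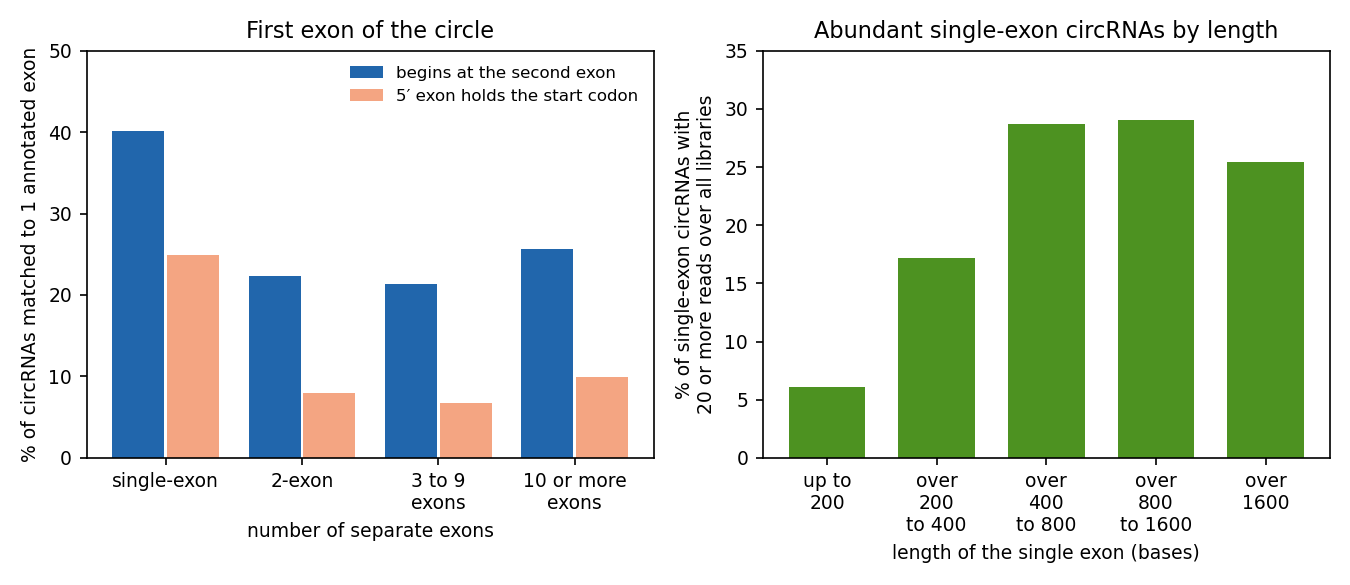
Left, share of matched circRNAs (%) that begin at the second exon of the transcript (blue) or whose 5′ exon holds the start codon (orange), by number of exons; single-exon circles stand at 40.1% and 24.9%. Right, share of single-exon circRNAs (%) with 20 or more reads over all libraries, by exon length in bases, which runs from 6.08% in the shortest bin to 29.0% over 800 and up to 1600 bases.

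Second exons held most of the reads. Second-exon members had a median of 466 bases and 27.5% of them had 20 or more reads, whereas later internal exons had a median of 336 bases and 16.3% of them did. The 407 second-exon members held 63.7% of the reads of matched members. Of the 210 matched members with 20 or more reads, 112 (53.3%) were second exons and 70 (33.3%) held the start codon.

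The reading frame was followed around each circle that holds a start codon. From the start codon of 252 internal members the frame passed the junction and then met a stop in 228, met no stop in 22 and stopped before the junction in 2. The annotated coding sequence of such an exon runs on into the next exon unless it ends within it. That nearly all frames reached the junction thus follows from the annotation. Among all-coding members 40.6% had a length that is a multiple of 3, against 41.4% of the all-coding internal exons of the same transcripts.

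Hosts usually made larger circles as well. Of the 1009 hosts, 787 (78.0%) also had a multi-exon circRNA in the list, and 222 had single-exon circles alone. The single exon lay inside a multi-exon circRNA of its host in 721 members (62.3%) and shared a junction end with one in 682 (58.9%), the acceptor end in 501 and the donor end in 322. The 2 ends differed by position. Second-exon members shared the acceptor in 213 of 407 (52.3%) and the donor in 12 (2.95%), and later internal members shared the acceptor in 233 of 603 (38.6%) and the donor in 275 (45.6%). To share the donor of a second exon, a multi-exon circle would have to begin at the first exon, which has no acceptor. The low donor share of second exons thus follows from the annotation and is no separate result.

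Where a single-exon circle was abundant, it often made up most of the host's listed circRNA. Members with over 50% of the listed circRNA reads of their host were 381 of 1157 (32.9%), and 130 of the 227 with 20 or more reads (57.3%). Mapk4, an atypical mitogen-activated protein kinase, and the ephrin-B2 gene Efnb2 had no other circRNA listed. At the other end, the active-zone gene Rims2 had 43 listed circRNAs, and its most abundant single-exon circle, 311 bases long, took 2.65% of their reads. In the atrophin-family corepressor gene Rere it was 8.62%, in the chromatin kinase gene Tlk1 15.1% and in the heparan sulfate sulfotransferase gene Ndst3 21.3%.

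Several hosts had more than 1 single-exon circle, 119 of 1009 in all. The postsynaptic scaffold gene Dlgap1 had the most with 5, the largest of which had 12 reads. Among other hosts, the most abundant single-exon circle had 61 reads in the adhesion gene Fat3, 43 in the transcription factor gene Zbtb20, 31 in the kinase gene Hipk2, 7 in the kelch gene Klhl2 and 2 in the exchanger gene Slc8a1. Members of 1 host share its promoter and are not independent of each other, and 22 members (1.90%) overlapped another member.

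Rat libraries listed some of the same circles. The rat list held 620 single-exon circRNAs among its 13141 entries, and 210 mouse members (18.2%) had a rat single-exon circle of the same host and the same length. The share was 85 of 227 (37.4%) among members with 20 or more reads and 125 of 930 (13.4%) among the others. The rat counterpart of Nfix had 392 reads, that of Hipk3 160, that of the PWWP-domain gene Pwwp2a 150, that of the ephrin receptor gene Epha5 110 and that of Med13l 29. These reads are summed over all 6 rat libraries, CA1 tissue and control and bicuculline-treated cultures together.

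A set of 10 gene lists was used to see which kinds of genes host single-exon circles; the lists were chosen with earlier results of these data known and are given as counts. The chromatin and transcription list had the most reads, with 30 members in 24 of its 37 genes and 16.3% of all member reads. Of its 5681 reads 4619 came from Tulp4 and 788 from Zfp609. Its first rank thus rests on Tulp4, a tubby-like protein gene whose place in this list was not examined. Protein kinases had 9 members (5.33% of reads) with Hipk3, Mapk4 and Tlk1 in front, and adhesion and axon guidance genes had 34 members (2.21%) led by Epha5. The postsynaptic density list had 24 members (1.78%), led by the glutamate receptor subunit genes Grin2b with 161 reads and Grin2a with 138.

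The other lists were small in reads. Presynaptic release genes had 20 members (0.755%), of which the vesicle gene Sv2b had the most reads (81). Ion channels and exchangers had 10 members (0.80%), RNA-binding and splicing genes 19 (0.70%) and ubiquitin and SUMO genes 11 (0.499%). Heart muscle genes had 4 members with 42 reads in all, and germ cell genes 2 members with 11 reads.

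The part of a library's circRNA reads that fell on single-exon circles was similar in most tissues and low in testis. It was 8.85%, 9.43% and 8.85% in the 3 brain libraries, 9.04% ± 0.333 (SD, n = 3). Heart averaged 6.56% ± 0.961, liver 8.17% ± 1.59, lung 8.41% ± 0.612 and testis 2.96% ± 0.361 (n = 3 each). The 12 libraries of these 4 tissues ran from 2.55% to 9.99%, so brain lay within their range, while the highest testis library, at 3.22%, was below the lowest of every other tissue (5.83% in heart). The share of 2-exon circles was also lowest in testis, at 9.20% to 9.81%, against 13.1% to 21.4% in the other tissues. As 20.4%, 22.3% and 6.07% of the brain members' reads were from Tulp4, the brain share without it was 7.67%.

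In the developing hippocampus the share had its maximum at P1. It was 10.3% and 10.5% at E18, 12.8% and 13.2% at P1, 10.2% and 11.1% at P10 and 8.80% and 8.79% at P30. Both P1 libraries lay above all others, and their exact binomial 95% intervals, 12.4% to 13.2% and 12.7% to 13.8%, did not reach those of E18 (9.89% to 10.7% and 10.1% to 11.0%). These intervals cover counting error only, and a share summed over members was given no test.

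Shares in compartments were close to each other. Synaptosomes had 7.75% and their homogenate 7.58%, and CA1 neuropil had 7.53% and somata 7.95%, in 1 library each. The poly(A)-selected brain library had 11 reads of members among 127 circRNA reads, 8.66% (exact binomial 95% interval 4.40% to 15.0%), and its rRNA-depleted counterpart 8.85%.

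**Figure D2:**
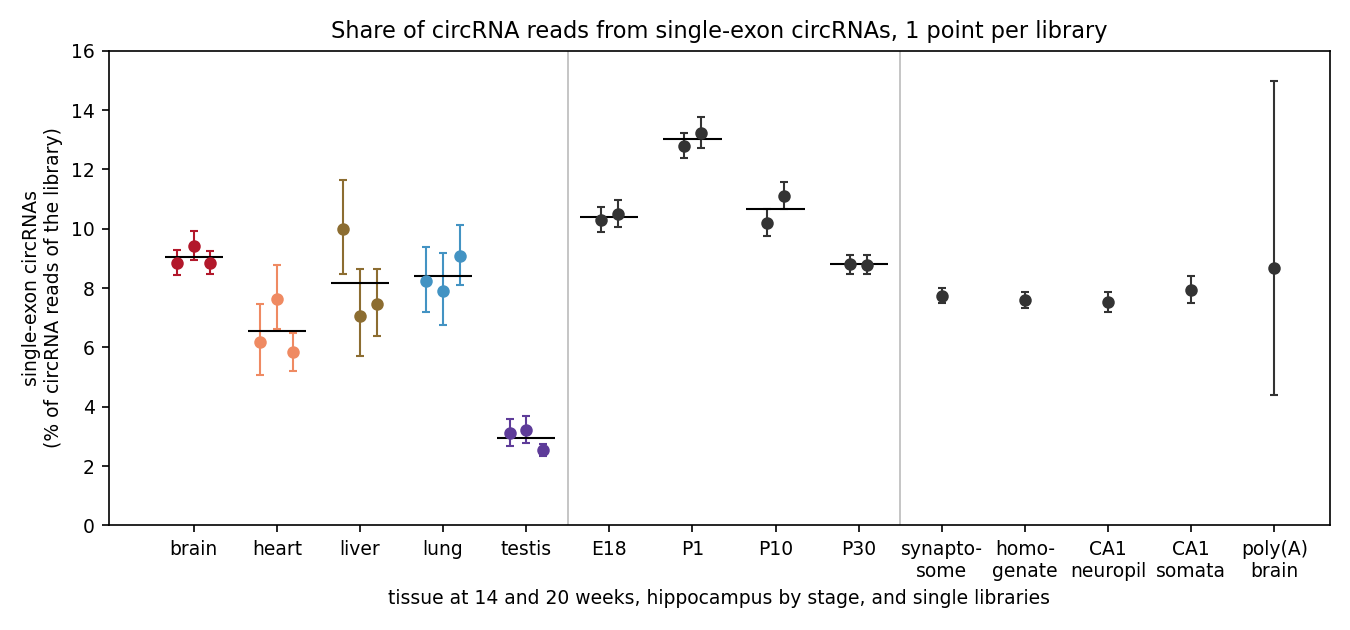
Share of each library's circRNA reads that came from single-exon circRNAs (%), 1 point per library with its exact binomial 95% interval, and a line at the mean of groups of 2 or 3 libraries. Testis lies at 2.55% to 3.22%, the P1 hippocampus at 12.8% and 13.2%, and the poly(A) library has the widest interval.

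The libraries differed in depth and held the RNA their labels name. Depth ranged over the 27 rRNA-depleted mouse libraries between 1231 and 43523 circRNA reads, and 1 read was worth 0.448 to 2.14 RPM. The 4 brain markers (Snap25, Syt1, Mbp and Gfap) summed to 4397 to 5060 TPM (the deposited unit of gene RNA level) in brain and 5.07 to 35.03 in the other tissues, and the markers of heart, liver, lung and testis were highest in their own tissue. Heart markers also summed to 302 to 432 TPM in lung, against 26538 to 34737 in heart and at most 24.0 in brain, liver and testis. Blood markers, 3 of 4 in the table, summed to 467 to 1316 TPM in brain and 47.1 to 21417 TPM in the other tissues, and their part in the results was not tested.

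Brain was set against the mean of heart, liver, lung and testis to ask which single-exon circles differ by tissue. The circles of Tulp4, Cdyl, Hipk3, Myst4 and most other members tested were higher in brain, from about 3 to 5 log2 units for the leading ones, and none passed the test in the other direction. Of the 58 members with 20 or more reads over the 15 libraries, 49 (84.5%) were higher in brain and 0 lower (limma, adjusted p under 0.05). Among all 847 circRNAs tested, 69.8% were higher and 7.44% lower. The floor was on reads summed over all libraries, which had 14068 to 21432 circRNA reads in brain and 1231 to 23286 elsewhere. Members such as Mapk4, Slc8a3 and Ndst3 passed it on brain reads alone. They could be called only as higher in brain, so the counts lean that way by the choice of members. At an unadjusted p under 0.05 no member was lower in brain either, and edgeR with TMM and DESeq2 also called 0 lower, while they called 33 and 13 members higher. Among all 847 circRNAs these 2 tools called 362 and 92 higher and 21 and 20 lower.

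Tissue libraries differ in total circRNA, and scaling them alike moved these counts. With libraries set to equal circRNA totals 22 members were higher and 1 lower, the median of all circRNAs dropping to 0.46 from 2.05, and with equal medians 14 were higher and 10 lower, at a median of all of -0.42. Among all 847 circRNAs, 211 were higher and 85 lower with equal totals, and 121 and 280 with equal medians. The median of the members lay 0.62 above that of all circRNAs on the deposited scale, 0.26 above it with equal totals and 0.62 above it with equal medians. In bulk tissue, fewer cells of a type and less RNA per cell cannot be told apart.

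Tulp4 was the most abundant member in brain. Its circle had 554 and 567 RPM in the 20-week and 135 RPM in the 14-week brain library, against a lowest, median and highest of 5.23, 29.5 and 56.7 RPM in the 12 other libraries. All 3 brain libraries were above the others, and the 14-week brain library was far below the 20-week ones. The difference was 3.80 on the log2 scale (SE 0.37, limma, adjusted p = 3.59e-07), and with libraries set to equal circRNA totals it was 1.00 (adjusted p = 0.0678).

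Cdyl, Hipk3 and Myst4 were even across brain libraries. Cdyl had 150.2 and 136 RPM in 20-week and 118 RPM in 14-week brain, against 2.09, 6.40 and 14.7 RPM (lowest, median, highest) elsewhere, a difference of 4.32 (SE 0.37, limma, adjusted p = 9.85e-08). Hipk3 had 128, 115 and 127 RPM in brain, against 1.13, 5.93 and 20.7 RPM elsewhere, a difference of 4.27 (SE 0.42, adjusted p = 4.60e-07). For Myst4 the brain libraries had 108, 97.7 and 98.8 RPM, against 0, 3.77 and 13.6 RPM elsewhere, a difference of 4.60 (SE 0.57, adjusted p = 4.92e-06), which was 2.44 with equal circRNA totals (adjusted p = 0.0541). In all 3 genes the lowest brain library was far above the highest other library.

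Tlk1, Mapk4, Ndst3, N4bp1 and Setbp1 had the largest fitted differences beside Myst4, and they were at or near 0 in most libraries outside brain. Mapk4 had 35.2, 57.5 and 31.7 RPM in brain and 0 reads in the 12 other libraries, and Ndst3 had 35.2, 21.1 and 17.6 RPM in brain and 0 elsewhere. The fitted differences, 5.13 and 4.40 (limma, adjusted p = 1.00e-10 and 2.86e-10), depend on the pseudocount of 1.18 RPM when a group is at 0. Both circles passed the floor on reads through brain alone, so only a higher value in brain could be called. Tlk1 had 37.1, 49.8 and 77.6 RPM in brain and 2 reads in the 12 other libraries, both from heart (difference 5.36, SE 0.28, limma, adjusted p = 5.68e-10). It too reached the floor only through brain reads and could be called only as higher in brain.

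The last pair behaved alike. The circle of N4bp1, which encodes a Nedd4-binding protein, had 31.5, 23.0 and 20.0 RPM in brain and a single read elsewhere, in 14-week testis (difference 4.39, SE 0.22, limma, adjusted p = 3.94e-10). This circle also reached the floor only through brain reads, so only a higher value in brain could be called. Setbp1 had 50.1, 47.9 and 45.9 RPM in brain and at most 8.65 RPM elsewhere, in 14-week lung (difference 4.54, SE 0.55, adjusted p = 3.65e-06). The RNAs of Tlk1 itself were in every tissue, at 36.0 to 86.6 TPM in brain and 19.7 to 91.3 TPM elsewhere, unlike its circle.

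Nfix was also found in every tissue. It had 53.8 and 78.6 RPM in 20-week and 81.1 RPM in 14-week brain, against 36.4 RPM on average in lung, 19.6 in heart, 11.5 in liver and 2.95 in testis. Brain libraries did not overlap with the others, the highest of which was 14-week lung at 40.8 RPM. The difference was 2.36 (SE 0.29, limma, adjusted p = 4.52e-06); with libraries set to equal circRNA totals it was -0.41 and with equal medians -0.12. Nfix and Tulp4 were the 2 highest members in heart and in lung, Nfix and Arhgap5 in liver, and Tulp4 and Tcf20 in testis.

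Several abundant members differed between the 2 ages of brain. Med13l had 133 and 115 RPM in 20-week brain and 23.5 RPM in 14-week brain, where it was below the highest lung library (31.5 RPM). Zfp609 had 124 and 103 RPM at 20 weeks and 18.8 RPM at 14 weeks, and Pvt1 48.2 and 44.1 RPM at 20 weeks and 7.05 RPM at 14 weeks. Tcf20 went the other way, with 26.0 and 17.2 RPM at 20 weeks and 65.8 RPM at 14 weeks. Of the 12 highest members 8 were lower in the 14-week brain library than in both 20-week ones, and 5 were over 2 times lower than the 20-week mean. With 1 library at 14 weeks this difference was not tested.

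The fit over both ages called these members higher in brain. The differences were 3.19 for Med13l (SE 0.50, limma, adjusted p = 5.15e-05), 3.14 for Zfp609 (SE 0.55, adjusted p = 1.33e-04), 3.67 for Pvt1 (SE 0.57, adjusted p = 4.09e-05) and 2.47 for Tcf20 (SE 0.60, adjusted p = 0.0018). Brain overlapped with other tissues in Med13l and Tcf20. Under equal circRNA totals these 4 differences were 0.55, 0.66, 1.68 and 0.14, with adjusted p from 0.113 to 0.893. Under equal medians that of Tcf20 was -0.0043.

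The calls of Arhgap5 and Fbxw7 rested on single libraries. Arhgap5 had 38.9 and 24.9 RPM in 20-week and 5.88 RPM in 14-week brain, 23.2 RPM on average, against 12.7 RPM on average in liver, its highest other tissue; its difference of 1.32 (limma, adjusted p = 0.0286) was lost without the first 20-week brain library (adjusted p = 0.215) or the second (0.122). The circle of the ubiquitin ligase gene Fbxw7 had 3.46 RPM on average in brain and 6.75 RPM in lung. It was called higher in brain against the mean of the 4 tissues by 0.96 (adjusted p = 0.0177), but not without the second 20-week brain library (0.0704) or the 14-week one (0.0918). Arhgap5 and Fbxw7 fell below 0 in the fits on equal totals, equal medians, edgeR with TMM and DESeq2.

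Among the 9 members that did not pass the test were some with a higher mean outside brain. The circle of the calcium pump gene Atp2a2 averaged 11.8 RPM in heart and 0.639 RPM in brain (difference -0.39, limma, adjusted p = 0.227), and that of Dlc1 13.1 RPM in heart and 4.16 RPM in brain (difference 0.80, adjusted p = 0.172). The phosphodiesterase gene Pde5a averaged 10.1 RPM in lung and 2.43 RPM in brain. These are averages of 3 libraries, and for Atp2a2 the contrast with 4 tissues together does not test heart alone.

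By highest mean, 49 of the 58 members (84.5%) had their top value in brain, 4 in lung, 3 in heart, 2 in testis (3.45%) and 0 in liver. Among all 847 circRNAs the top tissue was brain for 598 (70.6%) and testis for 184 (21.7%). Second-exon members were higher in brain in 29 of 34 tested, with a median difference of 2.90, and later internal ones in 17 of 20, with 2.42. Beside them, 69.8% of all circRNAs tested were higher in brain.

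**Figure D3:**
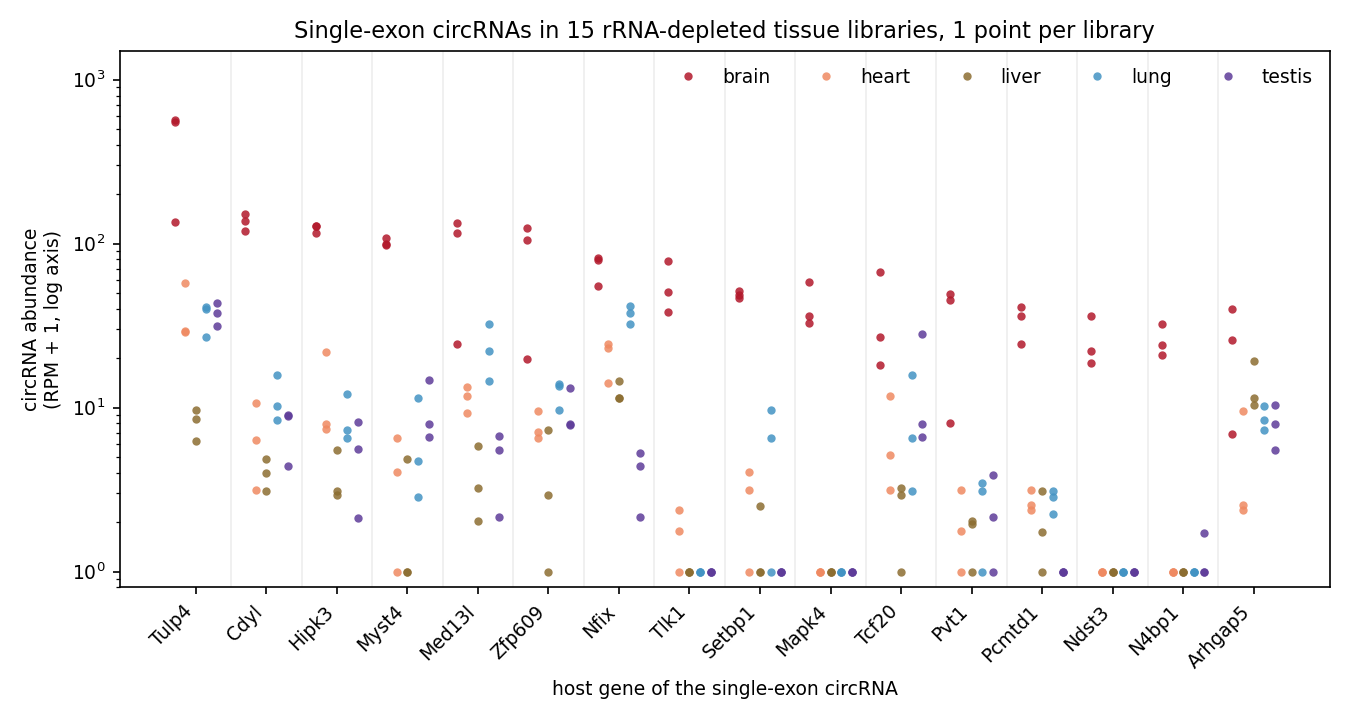
Abundance of 16 single-exon circRNAs (RPM + 1, log axis), 1 point per rRNA-depleted library, coloured by tissue; columns are host genes. Mapk4 and Ndst3 lie at 0 RPM in all libraries other than brain, and in Tulp4, Med13l, Zfp609 and Pvt1 the lowest brain point is the 14-week library.

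The fixed lists held few members that could be tested here. All 3 protein kinase members tested (Hipk3, Tlk1 and Mapk4) were higher in brain, with a median of 5.13, though Tlk1 and Mapk4 could be called only that way. So were all 3 of the chromatin and transcription list, Tulp4, Zfp609 and the acetyltransferase gene Ep300, with a median of 3.14. Of all circRNAs tested 69.8% were higher in brain. Rims2, the presynaptic member, was higher by 2.87 (limma, adjusted p = 1.72e-06), and the splicing regulator Mbnl2 by 2.83 (adjusted p = 2.91e-06). With equal medians Rims2 was at 0.39 (adjusted p = 0.441) and Mbnl2 at 0.35 (0.493), and with equal totals Mbnl2 was at 1.27 (0.141). Fbxw7 was the 1 tested of the ubiquitin list and Atp2a2 the 1 of the heart muscle list. No member of the postsynaptic, ion channel, adhesion or germ cell lists had enough reads.

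Set against the RNA of the host gene, fewer circles stood out. Host TPM is the level of the whole gene and was not split into linear and circular RNA. In 14-week brain Tulp4 RNA was 69.9 TPM with poly(A) selection and 504 TPM with rRNA depletion, whereas Tlk1 RNA was 54.8 and 36.0 TPM. The part of the circles in host TPM was not tested. The log2 ratio of circle to host was higher in brain for 27 of 58 members and lower for 7 (limma, adjusted p under 0.05), against 38.4% higher and 11.2% lower of the 830 circRNAs with a host in the gene table. The median of the members was 1.02 and that of all circRNAs 0.76. With a pseudocount of 1/5 the size 38 members were higher and 0 lower, and with one 5 times larger 16 were higher and 18 lower. Among the 830 circRNAs these were 379 and 34, and 178 and 254.

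Hipk3 and Tlk1 gained most over their genes. Hipk3 RNA was 101, 97.7 and 112 TPM in brain and 174 to 206 TPM in heart, yet its circle was higher in brain, and the ratio differed by 4.18 (SE 0.44, limma, adjusted p = 1.90e-06). That of Tlk1 differed by 4.78 (SE 0.43, adjusted p = 2.38e-07). Cdyl RNA was highest in testis, at 143 to 160 TPM, and 30.3 to 57.3 TPM in brain, whereas its circle averaged 6.45 RPM in testis and 135 RPM in brain, and the ratio differed by 3.05 (SE 0.40, adjusted p = 1.47e-05). N4bp1 (2.89), Pcmtd1 (2.74) and Setbp1 (2.54) completed the 6 largest differences with groups that did not overlap.

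The ratio fell in brain for other circles. Rims2 RNA was 123 to 157 TPM in brain and at most 23.8 TPM elsewhere, and the ratio of its circle was 2.79 lower in brain (SE 0.35, limma, adjusted p = 9.83e-06). The ratio of Fbxw7 was 1.98 lower (adjusted p = 0.0012) and that of the sodium-calcium exchanger gene Slc8a3 1.39 lower (adjusted p = 4.99e-04). Slc8a3 and Rims2 had a circle at 0 in most other libraries, where the ratio rests on the pseudocount. With a pseudocount of 1/5 the size Slc8a3 was 0.86 higher (adjusted p = 0.0423), and Rims2 and Fbxw7 were not called. Tulp4, at 1.37 higher (adjusted p = 0.0071), was not called without the first (0.0568) or the second 20-week brain library (0.0640).

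P30 hippocampus was set against E18 to ask which single-exon circles change as the hippocampus matures. Among the most changed, Fmn1, Tmem132d, Ndst3, Kcnj6 and Robo2 were higher at P30 by over 3 log2 units, and Zcchc11, Efnb2, Epha5 and Nfix were lower. Of the 137 members with 20 or more reads over the 8 libraries, 32 (23.4%) were higher at P30 and 14 (10.2%) lower (limma, adjusted p under 0.05), against 26.4% higher and 5.72% lower among all 1556 circRNAs tested. The median difference was 0.23 for the members and 0.62 for all circRNAs. Members such as Fmn1 and Ndst3 had 0 reads at E18 and reached the floor only through P30 reads. They could be called only as higher at P30.

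The calls moved with the scaling and with single libraries. With equal circRNA totals 17 members were higher and 20 lower, with equal medians 14 and 30, with edgeR and TMM 21 and 19 and with DESeq2 6 and 8, as the median of all circRNAs moved to 0.05, -0.09, 0.14 and 0.04. Among all 1556 circRNAs these settings called 203 higher and 153 lower, 172 and 188, 243 and 153, and 50 and 54. In these 4 settings the members' median lay 0.39, 0.38, 0.50 and 0.52 below that of all circRNAs, and 0.38 below it in the fit on the deposited scale. Fewer members were called without any 1 of the P30 or E18 libraries, which leaves 1 library at that stage. The calls of all circRNAs in these fits are not given here.

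Immature and mature cell markers moved strongly over the same stages. The summed TPM of Dcx, Mki67 and Sox11 was 493 to 636 at E18, 374 to 439 at P1, 95.1 to 99.97 at P10 and 18.8 to 23.3 at P30. That of Camk2a, Mbp and Mobp was 25.2 to 30.0, 37.4 to 44.7, 295 to 476 and 6672 to 7087 at the same stages. Blood markers summed to 1651 to 1843 TPM at E18 and 629 to 897 TPM at P30. The part of these cells in the results was not tested.

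Fmn1, a formin that builds actin filaments, had the largest difference. Its circle was at 0 in both E18 libraries, at 0.502 and 0.816 RPM at P1, 1.73 and 2.44 RPM at P10 and 13.9 and 20.2 RPM at P30. It was higher at each later stage, with the largest gain in RPM between P10 and P30, and the fitted difference was 4.91 (SE 0.63, limma, adjusted p = 3.69e-06). As the circle reached the floor only through P30 reads, only a higher value at P30 could be called.

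Kcnj6, which encodes the G protein-gated potassium channel GIRK2, was the most abundant member with a large rise. It had 2.18 and 3.74 RPM at E18, 2.01 and 8.98 at P1, 12.1 and 26.9 at P10 and 37.7 and 54.4 at P30. All P10 and P30 libraries were above those of E18 and P1, and the difference was 3.73 (SE 0.47, limma, adjusted p = 2.90e-06). The RNA of the gene was 3.22 and 2.33 TPM at E18 and 71.2 and 64.6 TPM at P30.

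Other circles rose from near 0. Tmem132d, a transmembrane protein gene, had 0 and 0.624 RPM at E18 and 10.4 and 12.8 RPM at P30 (difference 3.87, SE 0.61, limma, adjusted p = 4.65e-05). Ndst3 had 0 at E18 and 5.80 and 9.77 RPM at P30 (3.81, SE 0.66, limma, adjusted p = 1.22e-04), and it too reached the floor only through P30 reads. The axon guidance receptor gene Robo2 had 0 and 0.624 RPM at E18, 4.03 and 5.38 at P10 and 7.53 and 6.11 at P30 (3.14, SE 0.64, adjusted p = 5.41e-04). The 2934-base circle of the zinc finger gene Tshz2, with 1.09 and 0 RPM at E18 and 6.37 and 8.55 RPM at P30 (3.02, adjusted p = 0.00256), was not called without the second E18 (0.0526) or the second P30 library (0.0722).

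Among the abundant members the rise was smaller and came at different times. Pvt1 had 10.4 and 6.24 RPM at E18, 36.9 and 30.3 at P10 and 46.9 and 38.5 at P30 (difference 2.32, SE 0.31, limma, adjusted p = 4.47e-06). Cdyl stayed at 9.36 to 18.0 RPM from E18 to P10 and had 43.5 and 42.1 RPM at P30 (1.99, SE 0.31, adjusted p = 3.42e-05). Pcmtd1 likewise had 6.86 to 18.1 RPM up to P10 and 45.2 and 39.1 RPM at P30 (2.08, SE 0.31, adjusted p = 1.56e-05). Pvt1 had thus reached most of its P30 level by P10, and Cdyl and Pcmtd1 had not.

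Med13l, Myst4, Tcf20, Hipk3, Mapk4 and Tlk1 were also called higher. These were 1.40 for Med13l (limma, adjusted p = 2.17e-04), 1.23 for Myst4 (0.00955), 1.17 for Tcf20 (0.00273), 1.13 for Hipk3 (6.58e-04), 1.08 for Mapk4 (0.00478) and 1.99 for Tlk1 (0.0304). With equal medians the 6 were 0.69, 0.53, 0.47, 0.42, 0.37 and 1.29, with adjusted p from 0.0716 to 0.391. Myst4 was not called without the first P30 (0.175), second E18 (0.131) or second P30 library (0.079), Tcf20 without the first P30 (0.0589) or second E18 library (0.0627), and Tlk1 without any of the 4 (0.0721 to 0.161).

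The members that fell had their highest values at E18 and P1. Zcchc11, also called Tut4, which adds uridines to RNA ends, had 18.0 and 18.1 RPM at E18, 22.1 and 21.2 at P1, 6.34 and 3.91 at P10 and 5.22 and 4.28 at P30. The ephrin ligand gene Efnb2 had 12.5 and 13.1 RPM at E18, 21.6 and 15.5 at P1, 7.49 and 6.36 at P10 and 5.22 and 1.83 at P30. In both, every E18 and P1 library was above every P10 and P30 library. The differences were -1.81 for Zcchc11 (SE 0.35, limma, adjusted p = 3.92e-04) and -1.84 for Efnb2 (SE 0.41, adjusted p = 0.00126), the second of which was at adjusted p = 0.0503 without the second P30 library.

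Epha5, a receptor for ephrins, had 18.5 and 15.0 RPM at E18, 21.6 and 33.5 at P1, 10.4 and 7.33 at P10 and 6.38 and 4.28 at P30 (difference -1.57, SE 0.35, limma, adjusted p = 0.00126). Nfix, at far higher levels, had 81.1 and 83.0 RPM at E18, 86.4 and 84.9 at P1, 30.5 and 32.3 at P10 and 45.2 and 44.0 at P30 (-0.87, SE 0.20, adjusted p = 0.00146). It was lowest at P10, unlike Epha5, which was lowest at P30. Rere (-1.47, adjusted p = 0.0166) was not called without the first E18 (0.154) or second P30 library (0.191), and the chromatin reader gene Mllt3 (-1.15, adjusted p = 0.0495) without either E18, either P10, the second P1 or the second P30 library (0.055 to 0.444). Arhgap5 (-0.72, adjusted p = 0.0336) was not called without any 1 of the E18 or P30 libraries (0.0608 to 0.164).

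Tulp4, the most abundant member, did not pass the test. It had 195 and 226 RPM at E18, 228 and 281 at P1, 165 and 207 at P10 and 191 and 229 at P30, a difference of -0.00 (SE 0.15, limma, adjusted p = 0.986). With equal circRNA totals, equal medians, edgeR and TMM or DESeq2 it was lower by 0.70, 0.71, 0.58 and 0.69 (adjusted p from 0.00199 to 0.00819). Zfp609 had 29.4 and 48.7 RPM at E18, 55.3 and 65.3 at P1, 19.0 and 24.4 at P10 and 26.7 and 44.6 at P30 (-0.13, adjusted p = 0.755), and it was called lower under equal totals (-0.82), equal medians (-0.84) and edgeR with TMM (-0.70).

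P1 was the top stage of many members. By highest mean, 64 of the 137 members (46.7%) peaked at P1, 50 (36.5%) at P30, 16 at E18 and 7 at P10. Of all 1556 circRNAs 332 (21.3%) peaked at P1 and 887 (57.0%) at P30. The chromatin remodeller gene Ep400 was such a member, with 23.4 and 17.5 RPM at E18, 36.7 and 40.8 at P1, 13.8 and 15.7 at P10 and 22.0 and 16.5 at P30. Both P1 libraries of Zfp609 and of Ep400 were above all others of their gene.

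The share of reads from second exons was lower at P1 and P10 than at E18 and P30, with no overlap between the libraries. Second exons took 66.0% ± 1.07 of matched member reads at E18, 60.3% ± 2.28 at P1, 60.5% ± 1.76 at P10 and 65.5% ± 0.535 at P30 (SD, n = 2 each). Of the second-exon members 20 were higher and 7 lower at P30 of 69 tested, and of the later ones 10 and 6 of 60. Beside them, 26.4% of all circRNAs tested were higher and 5.72% lower.

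**Figure D4:**
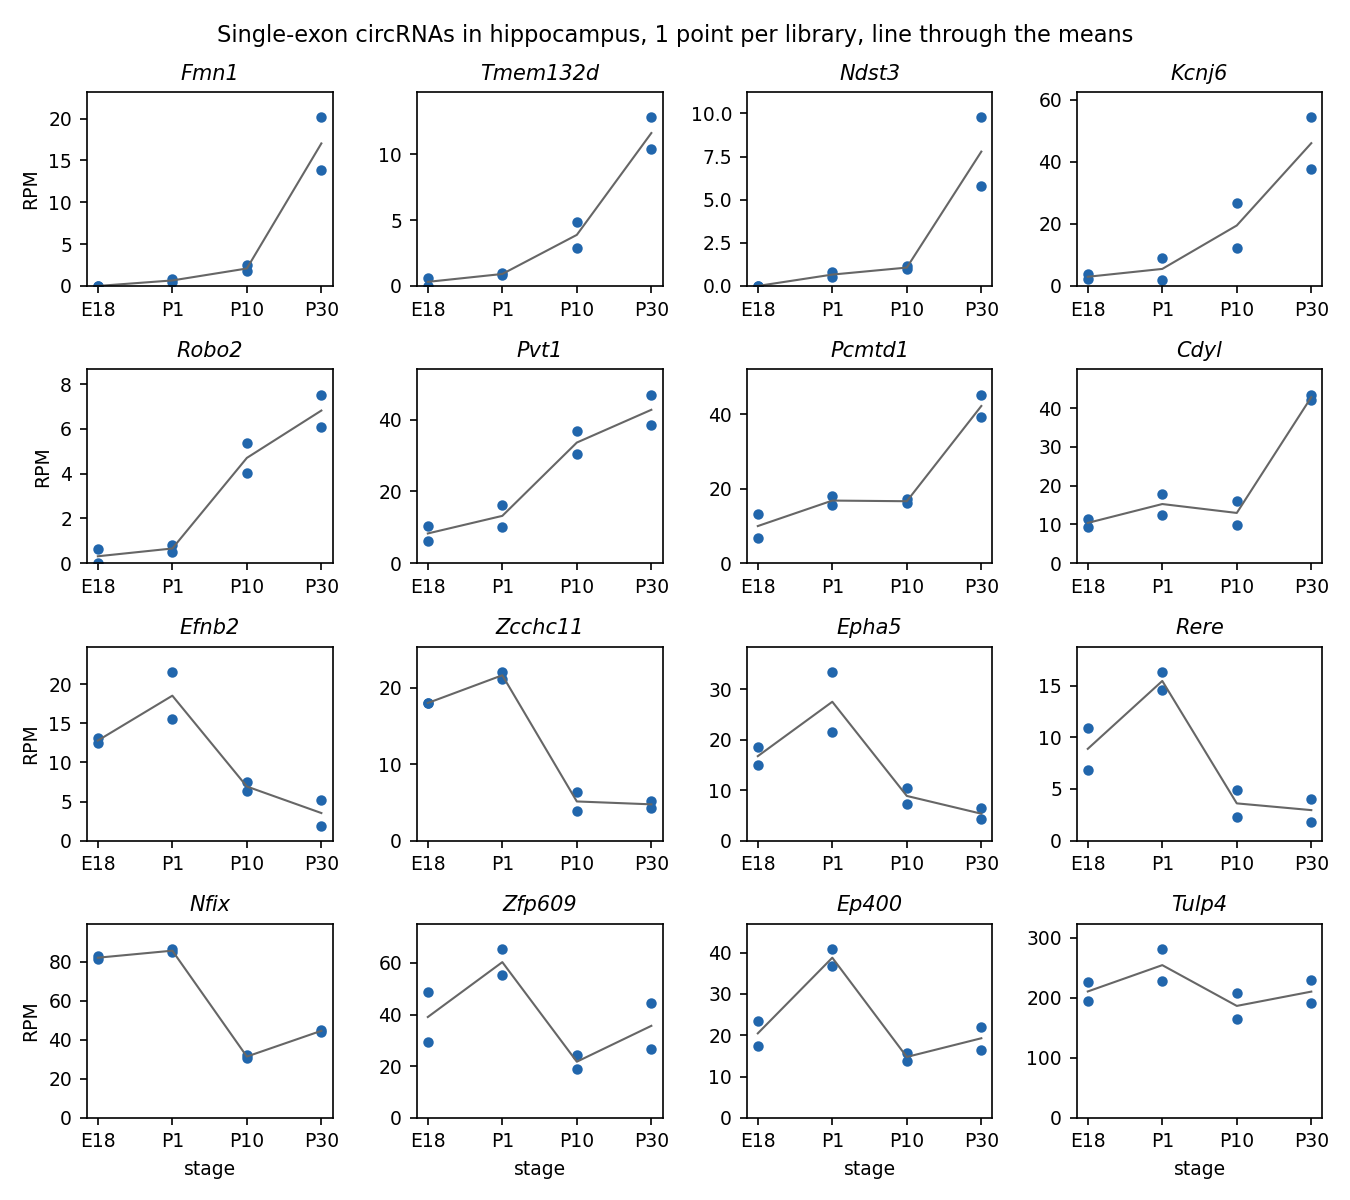
Abundance (RPM, linear axes that start at 0 and differ between panels) of 16 single-exon circRNAs in hippocampus at E18, P1, P10 and P30, 1 point per library, with a line through the stage means. Fmn1 lies at 0 at E18 and 13.9 and 20.2 at P30, Zcchc11 falls after P1, and Zfp609 and Ep400 are highest at P1.

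Among the lists, adhesion and axon guidance genes had 3 of 7 members tested higher at P30, Robo2 and 2 circles of the ephrin receptor gene Epha6, and Epha5 lower, with a median difference of 1.77. Beside these small counts, 26.4% of all circRNAs tested were higher at P30 and 5.72% lower. Protein kinases had 3 of 4 higher (Hipk3, Mapk4 and Tlk1; median 1.10) and RNA-binding genes 1 of 2, Mbnl2, by 2.55 (limma, adjusted p = 0.00643), which was not called without the second E18 (0.0728) or second P30 library (0.0678). The postsynaptic list had 1 of 5 lower, the scaffold gene Dlgap4 by -1.92 (adjusted p = 0.0237), not called without the second E18 (0.194) or second P30 library (0.181). None of 4 chromatin, 2 presynaptic, 1 ubiquitin and 1 ion channel members passed the test. Heart muscle and germ cell lists had no member tested.

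Few circles passed the test against the RNA of their gene. The log2 ratio of circle to host was higher at P30 for 7 of 137 members and lower for 5 (limma, adjusted p under 0.05), against 6.68% higher and 2.55% lower of 1528 circRNAs. Fewer members were called higher without any 1 of the E18, P10 or P30 libraries, and more were called lower without the first P1 library. Each of these fits leaves 1 library at a stage, and the calls of all circRNAs in them are not given here. With a pseudocount 5 times larger 12 were higher and 21 lower, against 219 and 186 of the 1528 circRNAs.

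Robo2 and the EGR corepressor gene Nab1 had the largest ratio differences, 2.55 (adjusted p = 0.0135) and 2.50 (limma, adjusted p = 0.0378). Robo2 RNA was 22.1 and 63.1 TPM at E18 and 56.4 and 57.8 TPM at P30, and Nab1 RNA 39.4 and 40.6 TPM at E18 and 49.8 and 48.5 TPM at P30, so both genes changed less than their circles. The receptor gene Epha3 (2.17), the Krüppel-like factor gene Klf7 (2.07), the syntrophin gene Sntb2 (1.87) and Tmem132d (1.41) followed, with adjusted p from 0.0223 to 0.0472, and Pvt1 (1.21) had adjusted p = 0.0320. Without the second E18 or the second P30 library none of the 7 was called, with adjusted p from 0.0898 to 0.279.

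The circles that lagged behind their gene included that of Chn1, a Rac-inactivating chimaerin, with 4.36 and 3.12 RPM at E18 and 0 at P30, while its RNA was 230 and 247 TPM at E18 and 1971 and 1669 TPM at P30 (ratio -5.81, limma, adjusted p = 5.13e-04). Grin2a was lower by 2.92 against its gene (adjusted p = 0.0119) and Fbxw7 by 2.95 (adjusted p = 0.0379). The tubulin glycylase gene Ttll3 (-1.83) and the docking protein gene Gab1 (-1.75) had adjusted p = 0.0472. Of these 5, Chn1 alone was called without each library in turn. Kcnj6, at -0.47 (adjusted p = 0.617), and Fmn1, at 1.07 (adjusted p = 0.205), did not pass the test against their genes, and with a pseudocount 5 times larger they were at -1.14 and -1.07 (adjusted p = 0.0162 and 0.0331).

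Compartments had 1 library each, so values are given without a test, and the exact 95% intervals of ratios cover counting error only. Summed over members, synaptosomes had 3372 reads (1852 RPM) and their homogenate 2769 reads (1241 RPM), a ratio of 1.49 (1.42 to 1.57), beside 1.46 for all mouse circRNAs. CA1 neuropil had 1836 reads (1990 RPM) and somata 1110 reads (1026 RPM), a ratio of 1.94 (1.799 to 2.09), beside 2.05 for all. Members thus followed the whole circRNA population in both pairs.

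Within the synaptosome pair, 42 of 55 members with 20 or more reads had a ratio above 1 (76.4%), and 79.0% of all circRNAs with as many reads did. The highest ratio was that of 3110082D06Rik, with 29 reads (15.9 RPM) in synaptosomes and 7 reads (3.14 RPM) in homogenate, or 5.08 (2.18 to 13.7). Aftph, which encodes the trafficking protein aftiphilin, came next with 30.7 RPM in synaptosomes and 6.27 RPM in homogenate, or 4.90 (2.69 to 9.53). Fmn1 followed with 13.7 and 4.03 RPM, or 3.40 (1.54 to 8.29). The lowest was Zfp609, with 3 reads (1.65 RPM) in synaptosomes and 23 reads (10.3 RPM) in homogenate, or 0.160 (0.0307 to 0.529). The polarity gene Llgl1, at 0.536 (0.186 to 1.38), and the growth factor receptor gene Igf1r, at 0.689 (0.268 to 1.66), had intervals that include 1.

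In the CA1 pair 24 of 26 members had a ratio above 1 (92.3%), and 96.8% of all circRNAs with 20 or more reads did. Robo2 had the highest, 19.5 RPM in neuropil and 3.70 RPM in somata, or 5.27 (1.74 to 21.4), from 18 and 4 reads. Ep400 had 3.63 (1.74 to 8.31) and Arhgap5 3.07 (1.58 to 6.33). The sialyltransferase gene St6galnac3 was lowest at 0.625 (0.230 to 1.57), followed by N4bp1 at 0.860 (0.357 to 2.00) and Mapk4 at 1.09 (0.471 to 2.50), all with intervals that include 1. Zfp609, low in synaptosomes, had 19.5 RPM in neuropil and 9.25 RPM in somata, a ratio of 2.11 (0.923 to 5.12).

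The abundant members differed in how they compared with the ratio of all circRNAs. Tulp4 was at 1.53 (1.27 to 1.85) in synaptosomes over homogenate and 1.62 (1.23 to 2.14) in neuropil over somata, Hipk3 at 1.55 (1.13 to 2.12) and 1.79 (1.18 to 2.73), and Med13l at 1.17 (0.973 to 1.40) and 2.25 (1.69 to 3.02). Of the 12 highest members, Arhgap5 at 2.73 (1.85 to 4.10) and Setbp1 at 2.31 (1.69 to 3.20) lay above the ratio of all circRNAs in synaptosomes with their whole interval. Med13l, Pcmtd1 at 0.976 (0.741 to 1.28) and Zfp609 lay below it with theirs. Ep400, outside the 12, was above it at 2.77 (1.58 to 5.04).

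**Figure D5:**
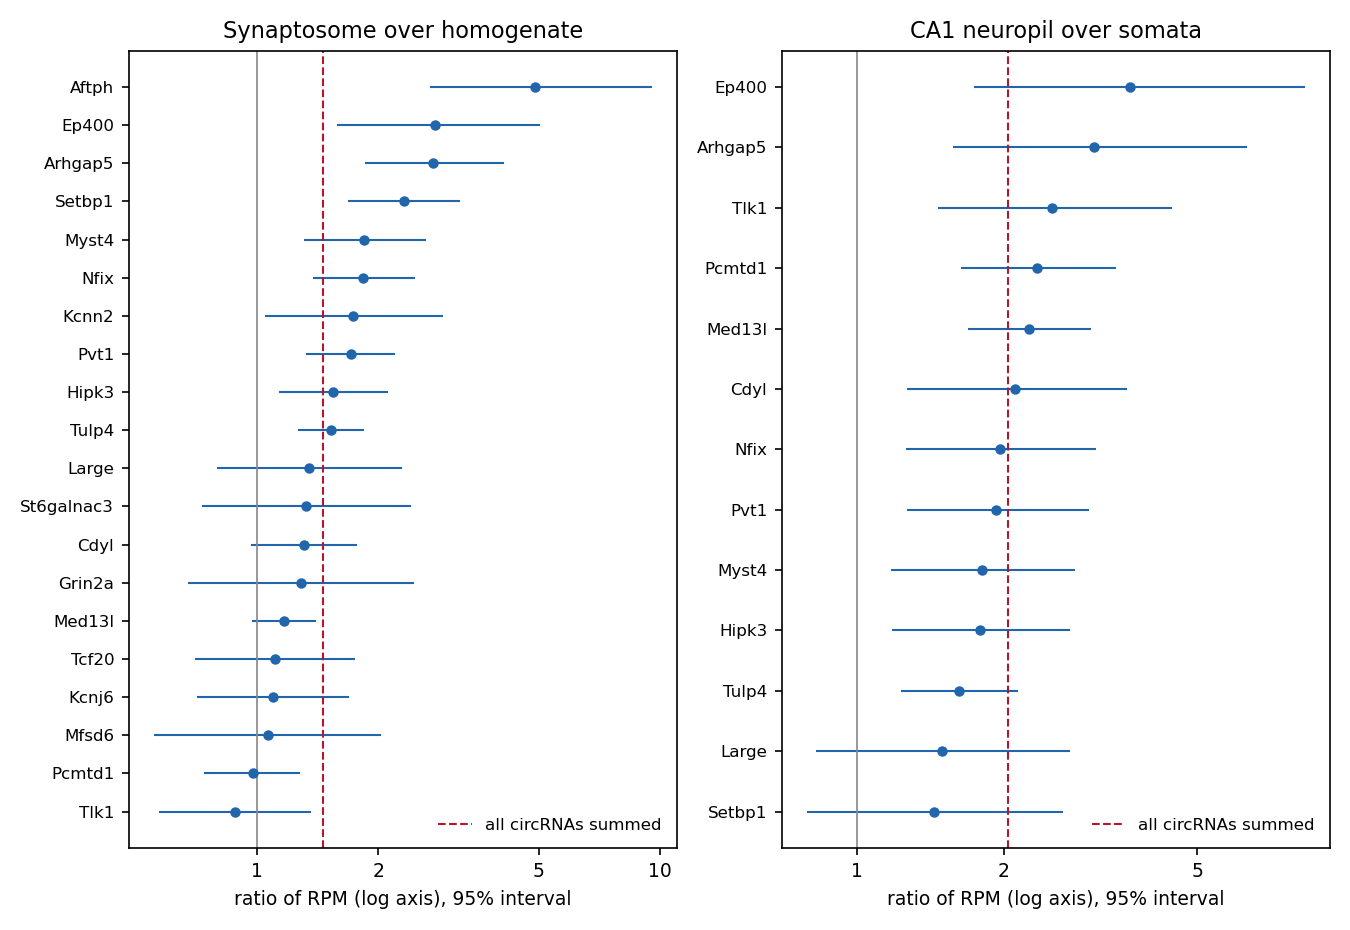
Ratio of RPM (log axis) with its exact 95% counting interval for named single-exon circRNAs with 40 or more reads in both libraries together, in synaptosomes over homogenate (left) and CA1 neuropil over somata (right). The dashed line is the ratio of all mouse circRNAs, 1.46 on the left and 2.05 on the right; Aftph stands at 4.90, and Tlk1 at 0.885 is lowest on the left.

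Single-exon circles were nearly absent from poly(A)-selected RNA. The members had 11 reads (6.78 RPM) in the poly(A)-selected 14-week brain library and 1896 reads (2229 RPM) in the rRNA-depleted one, a ratio of 0.00304 (0.00152 to 0.00546), beside 0.00311 for all circRNAs. Med13l had 1 read in the poly(A) library and 20 in the rRNA-depleted one, a ratio of 0.0262 (0.0006 to 0.164). Tulp4 had 0 and 115 reads, Hipk3 0 and 108 and Cdyl 0 and 100. All 16 members with 20 or more reads in both libraries together were lower in the poly(A) library. As that library had 11 reads of members in all, the floor fixed this outcome, and it adds nothing to the summed ratio. Among all 118 circRNAs with as many reads, 0 had a ratio above 1.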

How the data were processed

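RNA was extracted with TRIZOL per the labels' protocols, and 28 mouse and 6 rat libraries of the 35 samples had values. Tools listed per the submitters' processing notes are TopHat2 2.0.6, Cufflinks 2.2.1 and CASAVA 1.8.2, with genome builds rn5 and mm9. For the calling of circRNAs, the tool is not given in the sources that were read. The authors deposited circRNA abundance as RPM, reads over the back-splice junction scaled per library to a denominator that is not stated, and gene RNA as TPM for 24601 mouse genes. The deposited lists of circRNAs hold exon blocks and a score per circRNA, which was not used.

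Every circRNA value was a whole multiple of what 1 read is worth in its library (100% of values within a tolerance of 0.1 read), so reads were recovered. The test was limma 3.58.1 (R 4.3.3) on log2(RPM + a pseudocount of 1.18 for tissues or 0.578 for hippocampus), over all circRNAs with 20 or more reads in the 15 or 8 libraries fitted, with Benjamini-Hochberg adjustment over all of them and a threshold of 0.05. Differences on this scale understate those of low circRNAs, and a fitted difference against a group at 0 depends on the pseudocount and is no bound. For ratios, log2(host TPM + 1) was subtracted. On simulated data the fit found 57% of 4-fold and 64% of 8-fold changes among 847 circRNAs in the tissue design, and 23.4% and 68.5% among 1556 in the hippocampal design. All tests were two-sided.

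Alternatives were edgeR 4.0.16 and DESeq2 1.42.0 on recovered reads, other scalings, pseudocounts and floors, a replicate block, and each library left out. Shares have exact Clopper-Pearson 95% intervals and ratios of 2 libraries exact conditional ones; reads carry no molecular identifiers. Tables were handled in Python 3.11.15 (pandas 2.3.3, numpy 2.4.6, scipy 1.17.1).

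Named members are the 12 highest, the 6 largest differences each way with groups that do not overlap, the 2 highest per tissue, extremes of ratios and of length, and members of listed hosts and gene lists; Dlc1, Pde5a, Ep300, Epha6, Grin2b and Sv2b were named after their values were seen, as was Atp2a2, the 1 heart muscle member tested. The members and the lists were chosen with earlier results of these data known. Replicate numbers do not pair libraries: deviations of same-numbered libraries correlated between -0.04 and 0.05.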

Additional observations from a re-analysis of the deposited data

How the results depend on the processing

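Calls of members moved mostly with scaling and with the floor on reads. For brain against the 4 other tissues (49 members higher, 0 lower), 20 of 20 were higher with a floor of 50 reads, 151 were higher and 2 lower among circles seen in at least 3 libraries, and 194 were higher with no floor. The last 2 settings tested 252 and 762 members. Among all circRNAs the 3 settings called 203 higher and 20 lower of 250, 2669 and 158 of 5594, and 3741 and 29 of 19643. Equal circRNA totals gave 22 higher and 1 lower, equal medians 14 and 10, edgeR with TMM 33 higher and DESeq2 13 higher. Among all 847 circRNAs these 4 settings called 211 and 85, 121 and 280, 362 and 21, and 92 and 20. For P30 against E18 (32 higher, 14 lower), the floor of 50 reads gave 15 and 7, circles seen in at least 2 libraries 39 and 9, no floor 1 and 1, equal totals 17 and 20, equal medians 14 and 30, edgeR with TMM 21 and 19, and DESeq2 6 and 8. Among all circRNAs the 3 floors called 172 and 58 of 541, 890 and 205 of 14200, and 10 and 5 of 22022. The other 4 settings called 203 and 153, 172 and 188, 243 and 153, and 50 and 54 of 1556. edgeR with a read worth the deposited RPM, chosen after seeing the data, gave 51 and 0 in tissues and 31 and 12 in hippocampus. Among all circRNAs it called 617 and 1 in tissues and 433 and 89 in hippocampus. For ratios to the host in tissues (27 and 7), a pseudocount of 1/5 the size gave 38 and 0, one 5 times larger 16 and 18, and the floor of 50 reads 17 and 0; in hippocampus (7 and 5) the smaller pseudocount gave 4 and 1 and the larger 12 and 21. Among all circRNAs the tissue settings called 379 and 34 and 178 and 254 of 830, and 130 and 20 of 245. Those in hippocampus called 24 and 9, and 219 and 186, of 1528. The cause was not tested.

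Some members changed sign. In tissues, equal totals turned Arhgap5 to -1.23, Fbxw7 to -0.62 and Nfix to -0.41; equal medians gave Arhgap5 -1.16, Fbxw7 -1.52, Nfix -0.12 and Tcf20 -0.0043; edgeR with TMM gave Arhgap5 -0.41 and Fbxw7 -0.043; and DESeq2 gave Arhgap5 -0.57 and Fbxw7 -0.27. The ratio of Slc8a3 was 0.86 in tissues with the smaller pseudocount, and with the larger those of Tmem132d and Fmn1 in hippocampus were -0.27 and -1.07.

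Leaving out 1 library at a time gave 47 to 50 members higher and 0 to 1 lower in brain, and 20 to 31 and 5 to 7 for the ratios in tissues. The calls of all circRNAs in these fits are not given here, so the ranges show only how the members' calls depend on single libraries. In hippocampus each such fit leaves 1 library at a stage, so its counts are left out. Tulp4 ranged from -0.13 to 0.13 and Zfp609 from -0.50 to 0.23 at P30, and the ratio of Kcnj6 from -0.96 to 0.027. With the replicate number as a block, although it is not known whether the numbers pair the libraries, 51 and 0 members were called in tissues and 35 and 14 in hippocampus. For the ratios these were 29 and 7, and 9 and 6. The calls of all circRNAs in the fits with a block are not given here.

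Shares depended on the definition. Among listed circRNAs with a host, the share was 10.02% in brain, 9.08% in lung, 3.50% in testis, 11.3% at E18, 14.2% at P1, 11.8% at P10 and 9.69% at P30. Without merging touching blocks it was 4.60% in brain, 3.47% in heart, 4.53% in liver, 4.77% in lung, 1.30% in testis, 3.52% in these 4 tissues together, 4.89% at E18, 6.16% at P1, 5.32% at P10 and 4.73% at P30. Without Tulp4, chosen after seeing the data, it was 7.67% in brain, 5.55% in heart, 7.66% in lung, 2.53% in testis, 8.68% at E18, 11.2% at P1, 8.89% at P10 and 7.72% at P30. A single read was worth up to 2.14 RPM, which limits what can be detected in low members.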
